A study of Mus musculus with 23 samples.

Results

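MLL-AF9 in common myeloid progenitors (CMPs) that lack C/EBPα and had not given rise to leukaemia was examined on 7 of the 23 Affymetrix arrays of a mouse bone marrow study. The members were chosen by their titles: 3 arrays of GFP+ CMPs from recipients of knockout KSLs carrying MLL-AF9, and 4 arrays of knockout CMPs that had met no virus. KSLs are Lin-Sca-1+c-kit+ marrow cells, a population enriched for stem cells, and CMPs were gated as c-kit+, CD34+ and negative for Sca-1, FcγRII/III and lineage antigens. Donors of both groups were Mx.1-Cre+ C/EBPα f/f mice given 3 injections of poly I:C, which switches on the interferon-responsive Mx1 promoter and so deletes Cebpa throughout the blood system, not only in myeloid cells. The MLL-AF9 arrays came from donor KSLs kept in serum-free medium with SCF and thrombopoietin (100 ng/ml each) plus IL-3 at 10 ng/ml, infected with an MSCV retrovirus that encodes MLL-AF9 and GFP, and transplanted with protecting marrow into lethally irradiated congenic mice. The no-virus CMPs were sorted straight from the donors, 5 days after poly I:C. Virus, culture, transplantation, time since deletion and the GFP sort therefore all separate the groups and cannot be told apart, and the labels name no array batch. The MLL-AF9 CMPs on arrays 1, 2 and 3 came from recipients numbered 9, 11 and 4, and the study also holds a KSL array each from recipients 9 and 11. For reference, 3 arrays of knockout leukaemic granulocyte-macrophage progenitors (L-GMPs) were used, all from 1 leukaemia that followed injection of IL-3 and GM-CSF vectors. They were 1 array of primary L-GMPs and 2 from second transplants. The 4 arrays of control L-GMPs were 2 primary and 2 from second transplants. Arrays of control granulocyte-macrophage progenitors (GMPs, 3) and control CMPs (4) were also used, the controls being Mx.1-Cre- C/EBPα f/f. In tests against L-GMPs the primary and second-transplant means counted equally, while quoted averages are plain means over arrays.

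MLL-AF9 joins the DNA-binding end of the histone methyltransferase MLL to the transcriptional activator AF9, and is known for holding Hoxa cluster genes, Meis1, Mecom and Eya1 active in cells that would normally silence them. C/EBPα is the transcription factor that takes CMPs into the granulocyte and monocyte lineages, and in mice this fusion needs it to start acute myeloid leukaemia. Values below are log2 expression levels made by the authors with RMA, which sets arrays to a common distribution and has a floor of 3 here. A change is the mean of the MLL-AF9 arrays minus that of the no-virus arrays, so that +1 is a doubling. Levels are compared within a gene only.

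Cebpa, the deleted gene, was at 4.74, 4.49 and 4.79 on MLL-AF9 arrays 1 to 3 and at 5.51, 5.19, 5.55 and 4.99 on the 4 no-virus arrays, against a mean of 7.54 in control CMPs. All 7 arrays were thus well below the controls, and the difference between the groups did not pass the test (change -0.64 ± 0.18 SE, limma adjusted p = 0.0588). Kit, which the gate selects, was at 10.30, 9.70 and 9.45 with MLL-AF9 and between 9.45 and 9.78 without virus. Ly6g, the granulocyte marker, lay at 3.44 to 3.56 with MLL-AF9 and at 3.56 to 3.75 without virus, near the floor.

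The fusion's own targets did not move together on the 3 MLL-AF9 arrays. Hoxa9, the homeobox gene most tied to MLL leukaemia, was at 5.09, 7.46 and 6.93 with MLL-AF9 and at 5.61, 6.04, 6.10 and 5.79 without virus. Eya1, a phosphatase and transcriptional co-activator that MLL fusions switch on, was at 4.59, 8.99 and 8.86 with MLL-AF9 and at 6.91, 7.0, 7.09 and 6.99 without virus. Arrays 2 and 3 lay above all no-virus arrays for both markers, and array 1, from recipient 9, lay below all of them. Array 1 therefore goes against its label by the markers of MLL-AF9 activity. The main results of the comparison with no-virus CMPs are also given without it. No level of the fusion transcript or of GFP was read.

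The arrays also spread more with MLL-AF9 than without. The SD over a group's arrays had a median over genes of 0.242 log2 units with MLL-AF9 and 0.115 without virus. Among the MLL-AF9 arrays 496 genes had a range over 2 log2 units, and array 1 was the farthest from the median in 223 of these, array 2 in 147 and array 3 in 126. Among the no-virus arrays 15 genes did. Over all genes arrays 2 and 3 were about as far from each other as from array 1. Pearson r was 0.9479 between arrays 2 and 3, 0.9471 between 1 and 2 and 0.9494 between 1 and 3. The median absolute differences of these pairs were 0.308, 0.276 and 0.243 log2 units. Array 1 thus stood apart for sets of genes and not over all genes. Because of the wider spread with MLL-AF9, 2 conditions had to be met before a gene is said to rise or fall. Its Benjamini-Hochberg adjusted p, over all genes, had to be below 0.05 in limma with equal weights. The same had to hold with 1 weight per group, which lets the MLL-AF9 arrays be noisier. The 3 MLL-AF9 arrays and 1 of the 4 no-virus arrays had high Xist, so sex is partly mixed with the groups.

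The genes in which array 1 stood farthest from arrays 2 and 3 were picked after their values were seen. Mecom, which encodes the EVI1 zinc finger factor of stem cells, was at 3.65, 7.95 and 8.60 with MLL-AF9, against 4.13, 4.24, 4.22 and 4.29 without virus. Meis1, the homeobox partner of Hoxa9, was at 4.84, 8.76 and 9.79 with MLL-AF9, against 9.00, 8.55, 8.80 and 8.92 without virus. Mef2c, a MADS-box factor of myeloid and lymphoid progenitors, was at 4.88, 8.91 and 9.60 with MLL-AF9, against 8.64, 8.45, 8.76 and 8.91 without virus. Mecom, Eya1, Mef2c and Meis1 had the widest gaps below arrays 2 and 3 of all genes screened in this way. For Meis1 and Mef2c array 2 lay within or at the no-virus range and array 3 above it, while Mecom was high on arrays 2 and 3 only.

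Genes of mast cells and basophils were high on array 1. Mcpt8, a basophil protease, was at 10.74, 5.20 and 4.08 with MLL-AF9 and at 6.35, 5.31, 5.24 and 4.36 without virus. Hdc, which makes histamine, was at 10.10, 5.01 and 5.43 with MLL-AF9 and at 6.49, 5.76, 5.81 and 5.17 without virus. Cma1, a mast cell chymase, was at 7.78, 3.76 and 3.60 with MLL-AF9 and at 4.06, 3.75, 4.18 and 3.72 without virus. Of the 13 measured genes of the mast cell, basophil and eosinophil list, 7 stood at least 1 log2 unit above all 6 other arrays on array 1, as did 268 of all 19937 genes, while the eosinophil genes Epx, at 4.24, and Il5ra, at 3.25, did not. The mean level of the list was 7.68, 5.27 and 5.35 on MLL-AF9 arrays 1 to 3 and between 5.22 and 5.88 without virus. Tph1, which makes serotonin, was at 10.39 on array 1, against 3.44 and 3.80 on arrays 2 and 3 and 3.39 to 3.72 without virus, and Il6 and Lif, both cytokine genes, were at 9.00 and 10.73 there.

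The KSL arrays of the same recipients differed in the same way. The mast cell list had a mean of 8.10 in KSLs of recipient 9 and 5.33 in KSLs of recipient 11. Hoxa9 was at 5.98 in the first and 7.66 in the second, Eya1 at 6.08 and 9.04, Meis1 at 6.04 and 8.99, and Mecom at 4.29 and 8.46. The screen above took only genes with a KSL difference in the matching direction. The agreement of Eya1, Meis1 and Mecom was therefore set by that choice and adds no support. Mcpt8 and Hdc were taken by the same rule. Mcpt8 is on the mast cell list, so the KSL means of that list are likewise a description only. Of 277 genes that differed at least 4-fold between the CMPs of recipients 9 and 11, 257 differed in the same direction between their KSLs, and over all genes the 2 differences had Pearson r = 0.409, a description over genes of 2 mice. Recipient 9 thus stood apart from recipient 11 in both cell types.

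Arrays 2 and 3 carried genes of other lineages. On array 2, 5 of the 13 genes of the lymphoid progenitor list stood at least 1 log2 unit above all 6 other arrays, as did 267 of all 19937 genes. Dntt, the lymphoid DNA polymerase, was at 5.77, 10.52 and 5.26 with MLL-AF9 and between 6.92 and 8.46 without virus, and Il7r, the IL-7 receptor gene, at 5.02, 8.37 and 3.71 with MLL-AF9 and between 4.38 and 5.25 without virus. The B cell factor genes Ebf1, at 3.14, and Pax5, at 4.81, were not raised on array 2. On array 3, 4 of the 10 megakaryocyte genes stood that far above the others, as did 91 of all 19937 genes. Ppbp, a platelet chemokine gene, was at 4.25, 5.13 and 9.71 with MLL-AF9 and between 5.22 and 6.47 without virus. Pf4, a further one, was also highest on array 3 but by less than 1 log2 unit. It was at 7.64, 8.44 and 11.24 with MLL-AF9 and between 9.05 and 10.61 without virus. By the rule above, 0 members of the erythroid, megakaryocyte, mast cell, lymphoid progenitor, mature lymphocyte, dendritic cell and stromal lists rose or fell with MLL-AF9. The medians of the first 4 were 0.37, 0.21, 0.48 and -0.08. In sorted bulk cells a change in the share of a cell type and a change in RNA per cell cannot be told apart.

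**Figure D1:**
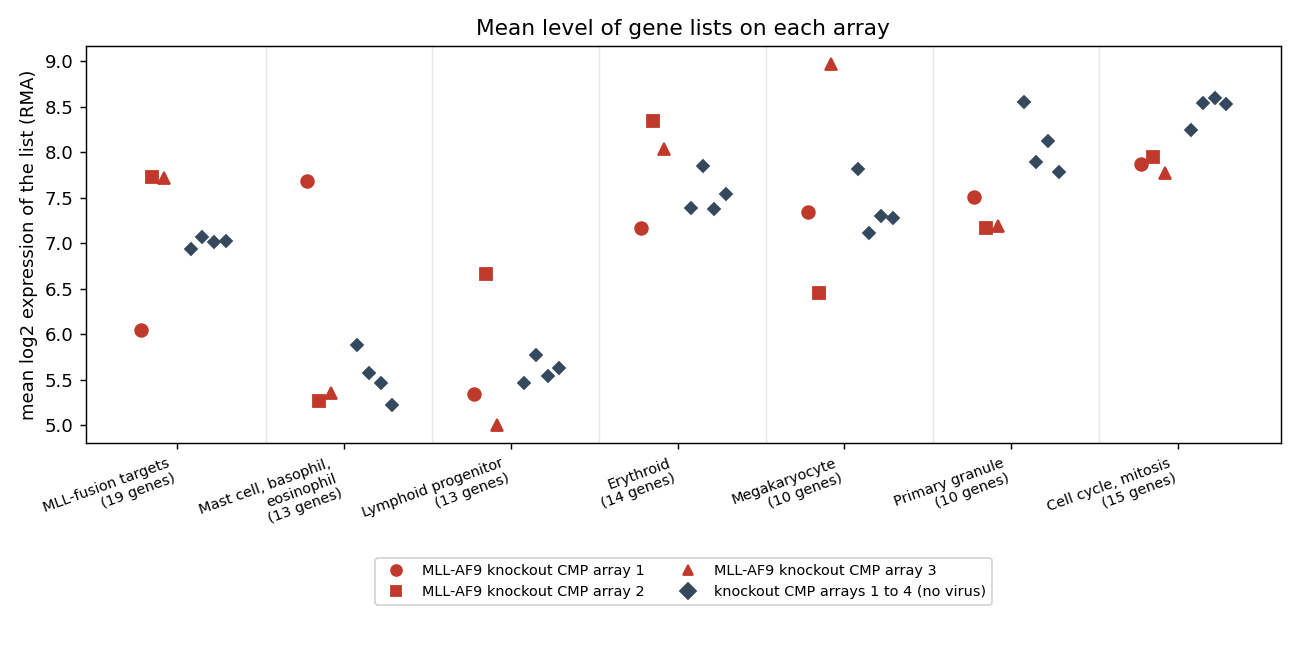
Mean log2 expression of 7 gene lists (y axis) on each MLL-AF9 knockout CMP array (red circle, square and triangle for arrays 1, 2 and 3) and each no-virus knockout CMP array (dark diamonds). Array 1 is high for mast cell genes (7.68) and low for MLL-fusion targets (6.05), array 2 is high for lymphoid progenitor genes and array 3 for megakaryocyte genes, while the mitosis list is lower on all 3 MLL-AF9 arrays.

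Across the list of 22 MLL-fusion targets, of which 19 were measured, 0 members passed in either direction on all 7 arrays by limma with equal weights. At unadjusted p below 0.05 the whole table held 3872 genes. The median change of the 19 was 0.16, against 0.01 over all 19937 genes tested. Of the 19, 11 lay above 0, as did 10700 of all 19937 genes. Hoxa9 had a change of 0.61 ± 0.45 SE and Eya1 of 0.48 ± 0.80 SE, with limma adjusted p = 0.487 and 0.807. The widest change was that of Mecom, 2.51 ± 0.95 SE with adjusted p = 0.151, and its second probe set gave 0.99.

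Without array 1 the median of the list was 0.62, against 0.00 over all genes, and 5 of the 19 members were called higher and 0 lower by limma with equal weights, where 1.15% of all genes were called higher and 2.04% lower. They were Mecom with a change of 4.05 (adjusted p = 0.00823), Eya1 with 1.93 (0.0466), Hoxa10 with 1.44 (0.0481), Hoxa7 with 0.91 (0.0102) and Hoxa3 with 0.80 (0.0499). Hoxa9 changed by 1.31 with adjusted p = 0.0546. Array 1 was singled out because Hoxa9 and Eya1, both on this list, were low on it, so these calls are conditioned on the values they test and are given as a description. Without array 2 instead, Eya1 had -0.27 and Hoxa9 0.12 (adjusted p = 0.967 and 0.978), and 0 members were called higher and 1, Jmjd1c, lower. Without array 3, 0 were called higher and 1, Zeb2, lower. None of the 5 had an adjusted p below 0.05 when group weights were used as well, where Mecom had 0.0502 and Eya1 0.24. Hoxa10 was at 5.49, 6.80 and 6.36 with MLL-AF9, against 5.07, 5.25, 5.18 and 5.02 without virus. Hoxa7 was at 6.21, 6.97 and 7.40 with MLL-AF9, against 6.05, 6.38, 6.34 and 6.31 without virus. Among the Hoxa genes, Hoxa10 was thus the one whose 3 MLL-AF9 arrays all lay above the no-virus arrays, array 1 included.

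The remaining targets varied in direction, and none passed. Bcl2, a survival gene, was at 9.40, 8.57 and 8.63 with MLL-AF9, above the no-virus arrays at 8.20, 8.38, 8.26 and 8.43, a change of 0.55 ± 0.21 SE with adjusted p = 0.158. Hoxa11 was at 4.67, 6.24 and 4.47 with MLL-AF9, against 4.42, 4.49, 4.63 and 4.49 without virus, a change of 0.62 with adjusted p = 0.441. Cdk6, a cell cycle kinase gene, had a change of -0.30, Myb, a progenitor transcription factor, -0.61, Pbx3, a Hox cofactor, -0.38 and Zeb2 -0.59, with adjusted p of 0.616, 0.281, 0.678 and 0.319. Jmjd1c, which encodes a protein of the histone demethylase family, was at 9.12, 9.33 and 8.89 with MLL-AF9 and at 9.90, 9.80, 9.58 and 9.33 without virus, a change of -0.54 ± 0.15 SE with adjusted p = 0.0514. Of the 10 measured genes of a further Hox list, 8 of the Hoxb and Hoxc clusters with Hoxa2 and Hoxa4, 0 passed, with a median of -0.15.

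**Figure D2:**
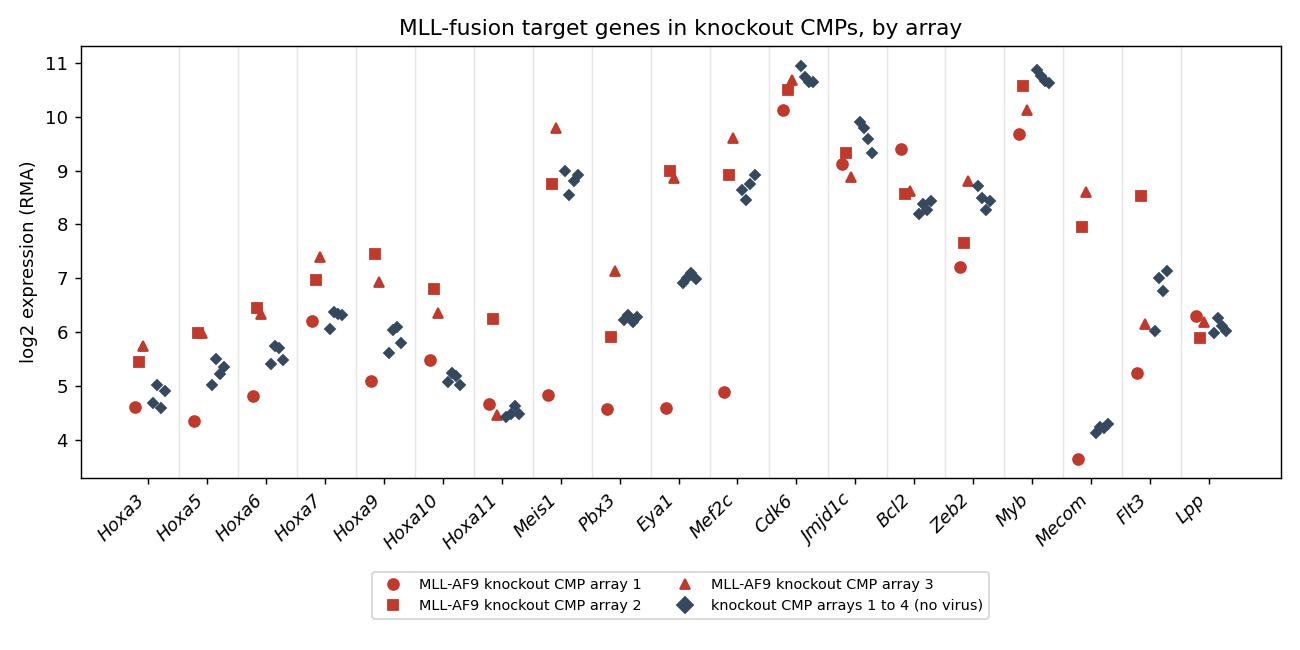
Log2 expression (y axis) of the 19 measured MLL-fusion targets on the 3 MLL-AF9 knockout CMP arrays (red, left of each pair) and the 4 no-virus knockout CMP arrays (dark diamonds, right). For Eya1, Hoxa9, Meis1, Mef2c and Mecom, among others, array 1 (circle) lies below every other array, and Mecom is at 7.95 and 8.60 on arrays 2 and 3 only.

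Over all 19937 genes, 972 passed with equal weights (4.88%), 302 higher (1.51%) and 670 lower (3.36%) with MLL-AF9. Equal weights treat the noisier MLL-AF9 arrays like the rest, so genes that passed with them alone are given as values and not as rises or falls. With group weights as well, 118 genes passed (0.592%), of which 24 rose (0.12%) and 94 fell (0.471%), and the arrays of the groups did not overlap in 116 of these. Over all genes the groups did not overlap in 16.3%, all MLL-AF9 arrays being higher in 6.93% and lower in 9.4%. Without array 1, 636 genes passed with equal weights, among them 475 of the 972 and 110 of the 118 in the same direction. With array 1 left out and group weights together, 1 gene passed, Hnf4a, a nuclear receptor gene named only for that reason, and 1562 had an unadjusted p below 0.05. The 28 genes below said to rise or fall thus passed with either change made alone, except Mocos without array 1, and none passed with both at once.

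The widest of the 24 rises were in Myl10, Il18r1 and Plxdc2. With high Xist as a covariate 9 of the 12 rises named here lost the call, these 3 among them (adjusted p = 0.0936, 0.135 and 0.095), as did 2 of the 12 falls. Myl10, a myosin light chain gene, was at 9.57, 10.05 and 7.15 with MLL-AF9, against 5.69, 5.95, 5.53 and 5.76 without virus, a change of 3.19 ± 0.64 SE or 9.13-fold (adjusted p = 0.0108). Il18r1, a subunit of the IL-18 receptor, was at 6.07, 8.94 and 9.09 with MLL-AF9, against 5.42, 5.87, 5.26 and 5.20 without virus (2.60 ± 0.56 SE, adjusted p = 0.0156). Plxdc2, a transmembrane protein gene, was at 10.14, 7.73 and 7.87 with MLL-AF9, against 6.31, 6.17, 5.93 and 6.51 without virus (2.35 ± 0.47 SE, adjusted p = 0.0103). Each of the 3 MLL-AF9 arrays lay above all no-virus arrays for these genes, array 1 lowest for Il18r1 and highest for Plxdc2. In MLL-AF9 KSLs of recipients 9 and 11 Plxdc2 was at 10.40 and 8.57 and Il18r1 at 8.07 and 9.75, while knockout L-GMPs averaged 4.63 and 4.61 for them. Without array 1 the changes were 2.87, 3.58 and 1.57.

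The rises with the least spread among arrays concerned Mt1, Cyba, Cope and Mexis. Mt1, a metallothionein gene that answers to zinc and stress, was at 10.04, 10.62 and 10.33 with MLL-AF9, against 8.60, 9.20, 8.19 and 8.54 without virus (1.70 ± 0.23 SE, adjusted p = 0.00114). Cyba, a membrane subunit of the NADPH oxidase of phagocytes, was at 9.38, 8.89 and 9.01 with MLL-AF9, against 7.42, 7.50, 7.56 and 7.58 without virus (1.58 ± 0.28 SE, adjusted p = 0.00541). Both genes were also above the no-virus knockout CMPs in control CMPs, at means of 9.65 and 8.33. Cope, a subunit of the COPI coat of Golgi vesicles, averaged 9.09 ± 0.23 with MLL-AF9 and 8.0 ± 0.19 without virus (SD, n = 3 and 4). Mexis, a non-coding RNA known from macrophage cholesterol export, averaged 6.35 ± 0.24 with MLL-AF9 and 5.39 ± 0.12 without virus (SD, n = 3 and 4).

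Lgals1, which encodes the lectin galectin-1, was at 11.80, 10.85 and 10.09 with MLL-AF9, against 9.22, 9.60, 9.31 and 9.32 without virus (1.55 ± 0.27 SE, adjusted p = 0.00455). Zmat3, an RNA-binding protein gene induced by p53, was at 7.90, 5.43 and 6.14 with MLL-AF9, against 4.65, 4.85, 4.61 and 4.97 without virus (1.72 ± 0.37 SE, adjusted p = 0.0155). Both were highest on array 1, and their changes without it were 1.11 and 1.01. Zmat3 was the 1 member of the p53 list, of 12 measured, that rose. The median of the list was 0.33, or 0.01 without array 1. Without that array 1 member was called higher and 2 lower with equal weights, against 1.15% and 2.04% of all genes. Ccng1 had 0.71 and Phlda3 1.07, neither passing, and on array 1 alone 4 of the 12 stood at least 1 log2 unit above all others, where 268 of all genes did. The remaining named rises were Mocos (1.08), Ncam2, an adhesion molecule gene (0.97), and Chic1 (0.95). Ncam2 and Chic1 were dim, averaging 3.05 and 3.68 without virus, a second Chic1 probe set gave -0.09, and Mocos had adjusted p = 0.0502 without array 1.

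The genes that fell included Mpo and Csf3r, a product and a receptor of the granulocyte path. Mpo, the myeloperoxidase of primary granules, was at 5.76, 9.42 and 7.29 with MLL-AF9, against 11.52, 11.40, 11.57 and 11.37 without virus, a change of -3.97 ± 0.60 SE, or 15.7-fold lower (adjusted p = 0.00209). Csf3r, the receptor for the granulocyte growth factor G-CSF, was at 4.60, 5.29 and 4.61 with MLL-AF9, against 6.44, 6.40, 6.55 and 6.25 without virus (-1.57 ± 0.16 SE, adjusted p = 0.00037). Cd34, the progenitor surface antigen that the gate requires, was at 7.99, 8.73 and 8.48 with MLL-AF9, against 9.98, 10.35, 10.34 and 10.23 without virus (-1.83 ± 0.18 SE, adjusted p = 0.00037). No MLL-AF9 array reached the lowest no-virus array for any of these. Without array 1 the changes were -3.11, -1.46 and -1.62.

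These falls started from no-virus CMPs that already lacked C/EBPα. Control CMPs averaged 12.49 for Mpo, 7.46 for Csf3r and 10.73 for Cd34, and MLL-AF9 KSLs of recipients 9 and 11 had Mpo at 8.07 and 9.34 and Cd34 at 8.41 and 8.70. Knockout L-GMPs had Mpo between 12.14 and 12.29 and Csf3r between 7.23 and 7.39, above both groups of knockout CMPs. The plot of 6 genes over every group of the series shows the MLL-AF9 knockout CMPs with the lowest mean for Mpo, Csf3r and Cd34, an order that was not tested.

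**Figure D3:**
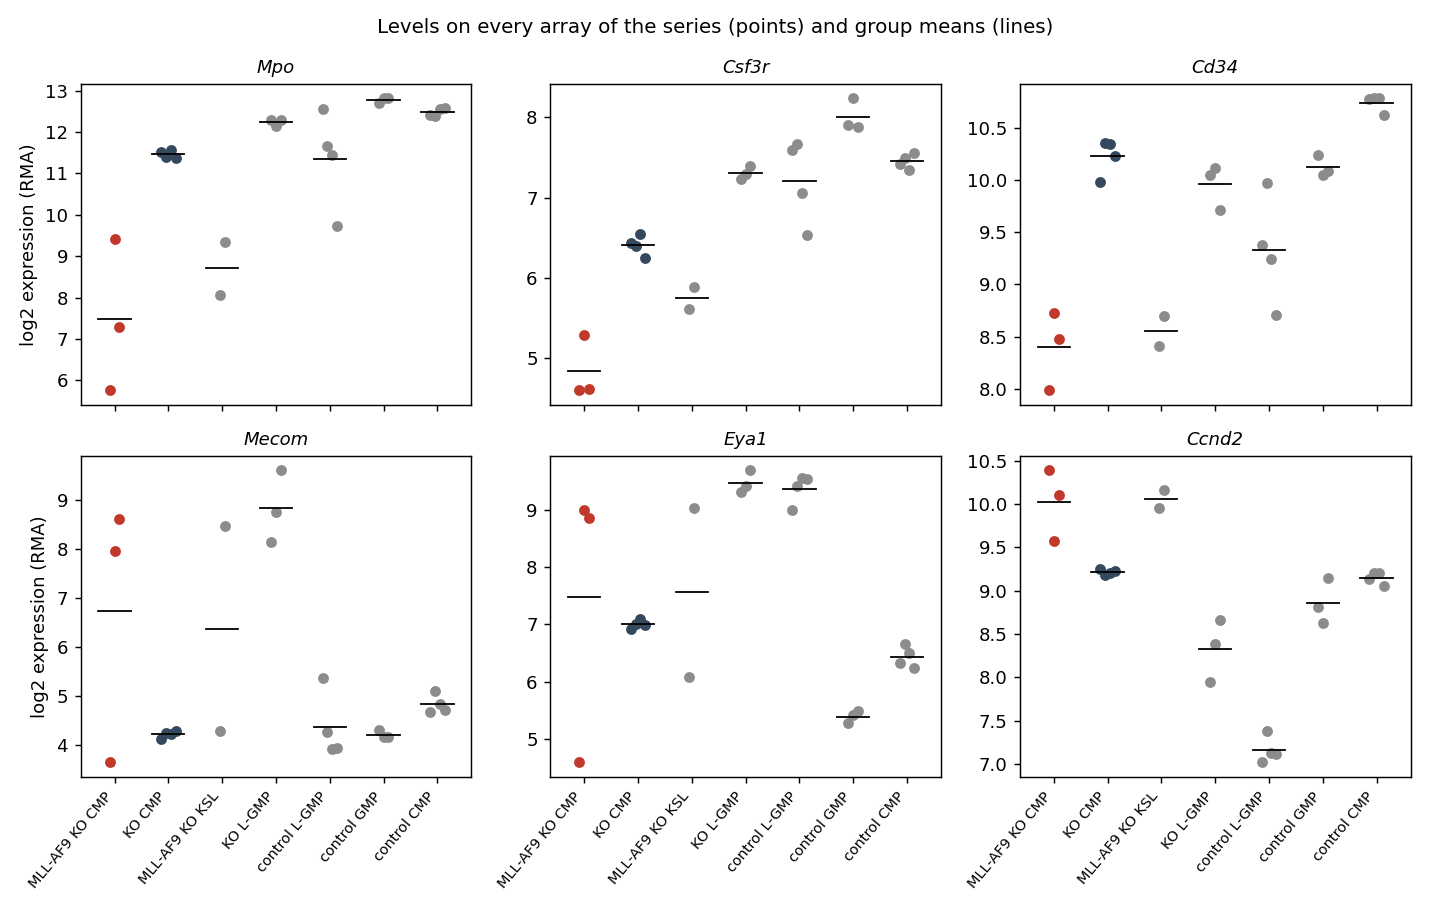
Log2 expression (y axis) of Mpo, Csf3r, Cd34, Mecom, Eya1 and Ccnd2 on each array (points) with the plain mean of each group (lines), for MLL-AF9 knockout (KO) CMPs in red, no-virus knockout CMPs in dark blue and the other groups in grey. Mean levels of Mpo, Csf3r and Cd34 are lowest in MLL-AF9 knockout CMPs (7.49, 4.83 and 8.40), and Mecom is high on 2 of the 3 MLL-AF9 CMP arrays, on 1 KSL array and in knockout L-GMPs, but not in control L-GMPs.

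The wider granulocyte lists gave few calls. Of 10 primary granule genes 3 passed with equal weights, all lower, and 1 of them, Mpo, with both weightings. Among all genes 3.36% and 0.471% were lower by these rules. Without array 1, 2 of the 10 were called lower with equal weights, against 2.04% of all genes. Prtn3, proteinase 3, was at 4.67, 6.17 and 6.12 with MLL-AF9, against 8.26, 7.23, 7.35 and 6.93 without virus, and Ctsg, cathepsin G, at 6.71, 5.08 and 5.25, against 8.47, 7.08, 7.96 and 6.38 without virus. Both had a change of -1.79 that passed with equal weights only. Ctsc and Serpinb1a, at 9.11 and 9.90 on array 1, were highest there. The list had a median of -0.68, against 0.01 over all genes. Of 15 granulocyte-monocyte receptor and regulator genes 2 passed with equal weights, both lower, and 1, Csf3r, with both weightings. The median of those 15 was -0.22, and 7 had a change above 0, as did 10700 of all 19937 genes. Fcgr3, whose product the gate excludes, had a change of -2.48 (adjusted p = 0.0277) and Itgam, the CD11b gene, of -1.25 (adjusted p = 0.0108), and group weights ended both calls, with adjusted p of 0.0894 and 0.113. Of 16 secondary granule and neutrophil genes and 13 monocyte and macrophage genes 0 passed, with medians of 0.18 and -0.09. In 3 of these 16 every MLL-AF9 array lay above every no-virus array and in 0 below, against 6.93% and 9.4% of all genes. S100a8 and S100a9 were among the 3, with changes of 1.56 and 1.28 (limma adjusted p = 0.197 and 0.336).

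The Mpo promoter is shown because Mpo had the widest fall, as read from RefSeq on GRCm38.p6 (chr11:87793534-87793833, plus strand, 250 bases before the start site to 50 after). Capitals mark the 1 match on either strand to GAGGAAGT, letters known to be bound by the myeloid transcription factor PU.1, and 3.2% of all 32851 promoter windows hold a match. A match describes these letters only.
Mpo promoter: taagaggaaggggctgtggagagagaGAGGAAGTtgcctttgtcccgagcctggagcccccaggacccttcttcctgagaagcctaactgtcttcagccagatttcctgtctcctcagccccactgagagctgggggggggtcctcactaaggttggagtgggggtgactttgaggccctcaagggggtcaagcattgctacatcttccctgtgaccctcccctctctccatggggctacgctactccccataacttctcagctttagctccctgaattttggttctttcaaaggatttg

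Id3, Skil, Zbtb10 and Rel, which encode regulators of transcription, were also among the largest falls. Id3, an inhibitor of basic helix-loop-helix factors, was at 4.43, 4.43 and 6.03 with MLL-AF9, against 7.44, 7.30, 6.37 and 6.90 without virus (-2.04 ± 0.32 SE, adjusted p = 0.00256). Skil, which encodes SnoN, a repressor of TGF-β signalling, was at 5.98, 6.50 and 6.67 with MLL-AF9, against 8.44, 7.71, 8.27 and 8.25 without virus (-1.79 ± 0.26 SE, adjusted p = 0.00163). Zbtb10, a zinc finger repressor gene, was at 7.37, 8.01 and 7.37 with MLL-AF9, against 9.47, 9.14, 9.59 and 9.15 without virus (-1.75 ± 0.21 SE, adjusted p = 0.000794). The no-virus knockout CMPs were themselves high for these genes, since control CMPs averaged 5.48, 7.17 and 6.40 for Id3, Zbtb10 and Skil. Rel, the NF-κB subunit c-Rel, was at 9.13, 8.73 and 7.21 with MLL-AF9, against 10.17, 10.06, 10.09 and 9.76 without virus (-1.67 ± 0.32 SE), and control CMPs averaged 8.73.

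Pcdh7, a protocadherin gene, was at 5.26, 5.14 and 4.95 with MLL-AF9, against 6.35, 6.80, 6.79 and 6.96 without virus (-1.61 ± 0.19 SE, adjusted p = 0.000794). Knockout L-GMPs stood between 10.04 and 10.20 for it and control CMPs averaged 5.13, so that it was far higher in the knockout leukaemia than in either knockout CMP group. Tfpi, the inhibitor of the tissue factor clotting pathway, was at 4.31, 5.33 and 4.47 with MLL-AF9, against 6.30, 6.39, 6.47 and 6.74 without virus (-1.77 ± 0.21 SE). Grk3, a receptor kinase gene, and Cyp2r1, a vitamin D hydroxylase gene, each fell by 1.57, and Tceal8 fell by 1.72, with 5.30 on array 1 and 7.85 on array 3 against 8.16 to 8.44 without virus.

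**Figure D4:**
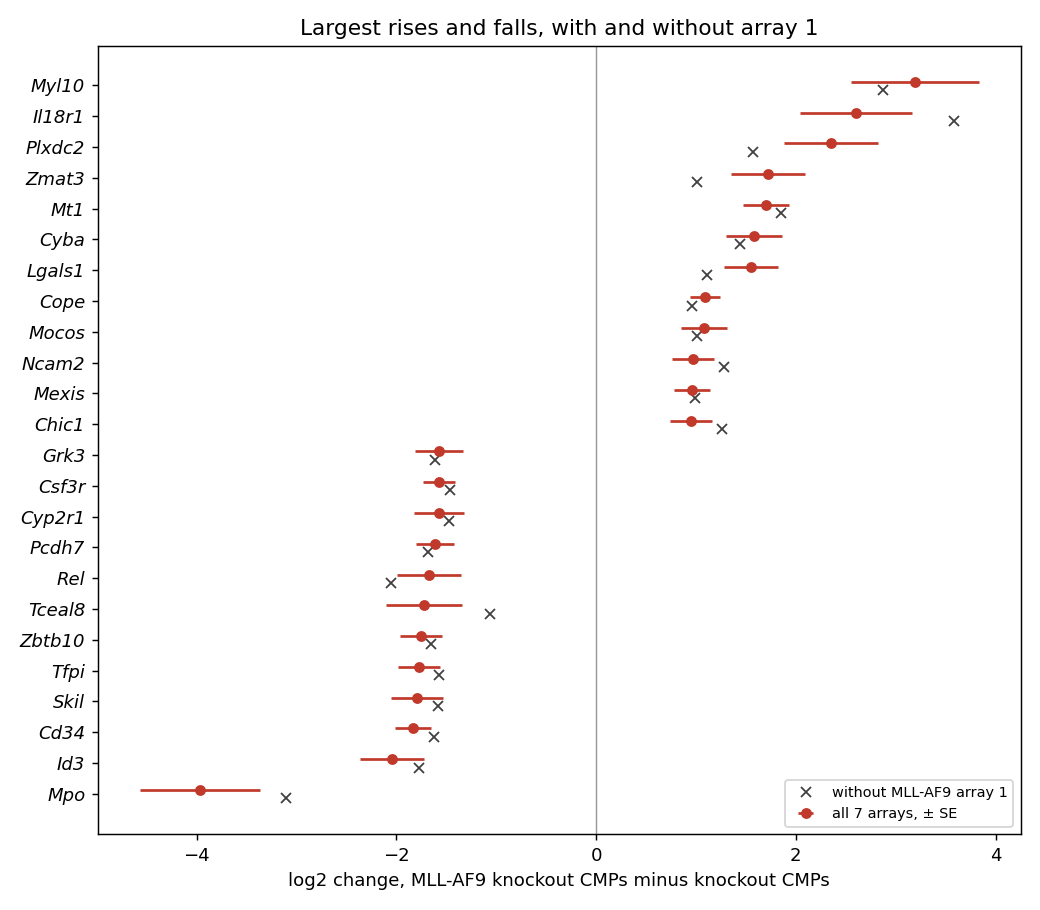
Log2 change of MLL-AF9 knockout CMPs minus no-virus knockout CMPs (x axis) for the 12 largest rises and 12 largest falls, on all 7 arrays with its standard error (red) and without MLL-AF9 array 1 (crosses). Every named gene keeps its direction without array 1, with the widest shifts in Il18r1 (2.60 and 3.58), Mpo (-3.97 and -3.11) and Plxdc2 (2.35 and 1.57).

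Mitosis genes were lower with MLL-AF9 on array 1 as on the others. Of the 15 measured, 6 passed with equal weights, all lower, and 3 fell with both weightings, where 3.36% and 0.471% of all genes did. Cenpe, a kinetochore motor gene, was at 6.60, 6.58 and 6.29 with MLL-AF9, against 7.47, 8.01, 7.97 and 8.02 without virus (-1.38 ± 0.14 SE, adjusted p = 0.00037). Cenpf, a kinetochore gene of late cell cycle, was at 6.98, 6.03 and 6.42 with MLL-AF9, against 7.46, 7.64, 7.92 and 7.72 without virus (-1.21 ± 0.19 SE, adjusted p = 0.00246). Mki67, the proliferation marker Ki-67, was at 8.55, 8.69 and 8.18 with MLL-AF9, against 9.52, 9.73, 9.78 and 9.64 without virus (-1.20 ± 0.24 SE, adjusted p = 0.0115). The lowest no-virus array lay above every MLL-AF9 array for each. Bub1, Top2a and Kif11 passed with equal weights only, at -0.98, -0.90 and -1.0.

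None of the 15 had a change above 0, while 10700 of all 19937 genes did. The median of the 15 was -0.37, or -0.34 without array 1, against 0.01 and 0.00 over all genes. Ccnb2, Cdc20 and Plk1 had changes of -0.18, -0.13 and -0.21, and did not pass. The list thus ranged from -1.38 in Cenpe to -0.13 in Cdc20. Of 16 DNA replication genes 0 passed, with a median of -0.20 and 3 above 0. Ccnd2, the D-type cyclin of blood progenitors, was at 10.39, 9.58 and 10.11 with MLL-AF9, against 9.25, 9.18, 9.20 and 9.23 without virus, a change of 0.81 ± 0.16 SE that passed with equal weights (adjusted p = 0.00803) and not with group weights (0.0585). In control CMPs, which like the no-virus cells were untransplanted, Cenpe, Cenpf and Mki67 averaged 7.91, 7.64 and 9.50, close to the no-virus knockout CMPs.

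The promoters of the 3 mitosis genes that fell are shown with the letters for which late cell cycle promoters are known: TTTGAA or TTCGAA, the core of the cell cycle homology region, and CCAAT, bound by NF-Y. Capitals mark matches on either strand, so that ATTGG is CCAAT on the other strand. The windows reach from 250 bases before the RefSeq start site to 50 after, on GRCm38.p6, at chr3:135212313-135212612 on the plus strand for Cenpe, chr1:189688037-189688336 on the minus strand for Cenpf and chr7:135716330-135716629 on the minus strand for Mki67.
Cenpe promoter: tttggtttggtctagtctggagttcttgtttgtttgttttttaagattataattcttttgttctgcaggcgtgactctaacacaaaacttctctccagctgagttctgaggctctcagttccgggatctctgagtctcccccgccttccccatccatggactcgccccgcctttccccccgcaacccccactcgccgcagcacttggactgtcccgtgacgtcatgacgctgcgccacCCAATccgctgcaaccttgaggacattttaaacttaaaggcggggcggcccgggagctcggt
Cenpf promoter: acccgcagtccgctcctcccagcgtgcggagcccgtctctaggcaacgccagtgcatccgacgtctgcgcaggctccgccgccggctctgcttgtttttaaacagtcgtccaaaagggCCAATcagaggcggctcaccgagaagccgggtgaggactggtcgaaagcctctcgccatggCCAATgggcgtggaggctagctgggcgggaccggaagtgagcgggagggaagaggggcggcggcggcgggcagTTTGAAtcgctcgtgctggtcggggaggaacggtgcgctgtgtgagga
Mki67 promoter: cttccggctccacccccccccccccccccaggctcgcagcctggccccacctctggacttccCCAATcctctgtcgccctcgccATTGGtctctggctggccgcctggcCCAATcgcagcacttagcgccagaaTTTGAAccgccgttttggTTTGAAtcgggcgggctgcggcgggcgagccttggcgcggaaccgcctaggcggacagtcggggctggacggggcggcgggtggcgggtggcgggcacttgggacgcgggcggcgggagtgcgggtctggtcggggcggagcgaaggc
Of the 13 mitosis genes with a window, 84.6% held the cell cycle homology core and 92.3% CCAAT. Over all genes with a window the shares were 21.7% and 41.1%. The Cenpe window had 0 matches to the first motif and 1 to the second, Cenpf 1 and 2, and Mki67 2 and 3. These are features of the genes on the list, whichever way they moved.

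**Figure D5:**
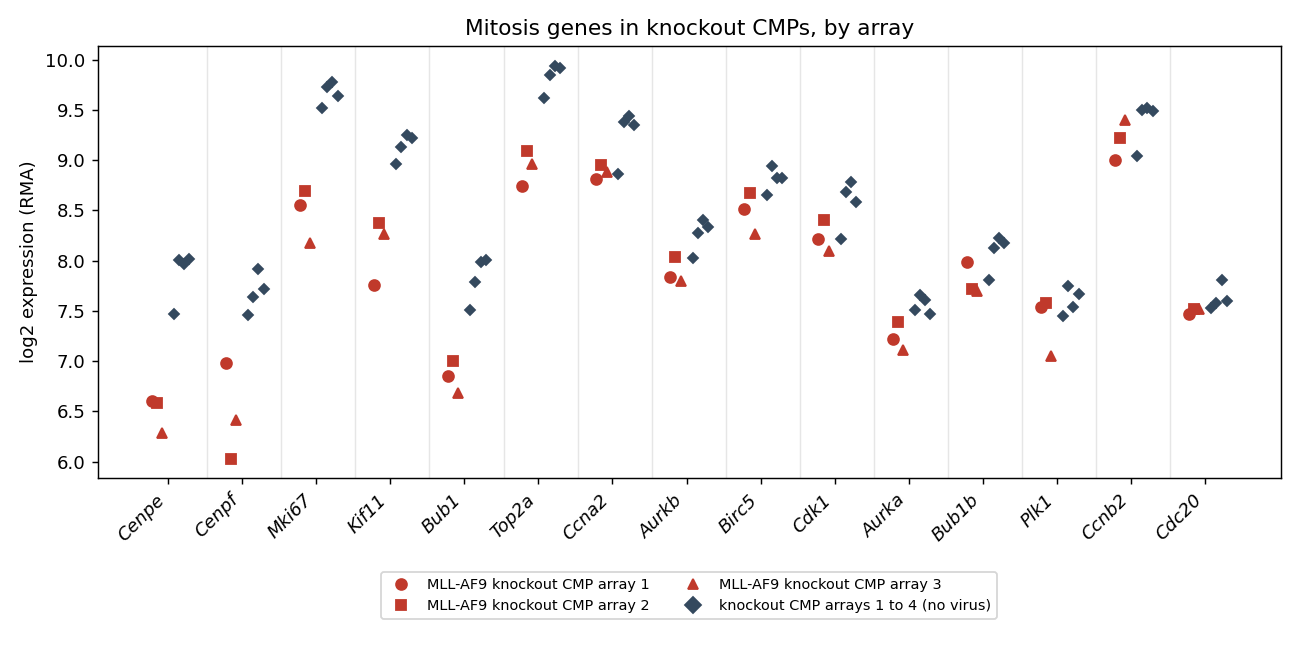
Log2 expression (y axis) of the 15 measured mitosis genes, ordered by change, on the 3 MLL-AF9 knockout CMP arrays (red, left of each pair) and the 4 no-virus knockout CMP arrays (dark diamonds, right). For 8 of the 15 genes every MLL-AF9 array lies below every no-virus array, as in 9.4% of all genes. Cenpe (6.29 to 6.60, against 7.47 to 8.02) shows the widest gap.

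Of 16 measured partners of MLL fusions and Polycomb genes, 4 passed with equal weights, all lower, and 1 fell with both weightings. Among all genes the shares were 3.36% and 0.471%. Without array 1, 1 of the 16 was called lower with equal weights, against 2.04% of all genes. Suz12, a core subunit of the Polycomb repressive complex that methylates histone H3, was at 8.63, 8.85 and 8.82 with MLL-AF9, against 9.47, 9.37, 9.59 and 9.48 without virus (-0.71 ± 0.12 SE, adjusted p = 0.00453). Its catalytic partner Ezh2 (-0.65), the ubiquitin ligase gene Rnf2 (-0.73) and Psip1 (-0.85), whose product tethers MLL to chromatin, passed with equal weights only. Eed, the remaining core subunit, had -0.02, so the subunits did not share one value. Dot1l, the histone methyltransferase that AF9 recruits, had -0.20 and Men1, the menin gene, -0.08. Mllt3, the mouse gene for AF9 itself, had 0.55 (adjusted p = 0.288), at 8.11, 8.59 and 7.54 with MLL-AF9 and 7.45 to 7.64 without virus, and whether its probes read the fusion transcript was not tested. The median of the list was -0.17.

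Of the other lists, those on stem cells, erythroid cells and stress gave single calls at most with both weightings. Among 16 stem cell genes Cd34 fell, and Mycn, a MYC family gene, was higher with equal weights only, at 7.73, 7.79 and 8.63 with MLL-AF9, against 7.08, 6.98, 7.08 and 6.80 without virus (1.06 ± 0.21 SE, adjusted p = 0.0103, or 0.0627 with group weights). Hlf had -0.11 and Slamf1 0.32, and neither passed. Of 14 erythroid genes 0 passed on all arrays. Klf1, the erythroid transcription factor, was at 5.98, 8.33 and 8.08 with MLL-AF9, against 6.30, 6.82, 6.56 and 6.61 without virus, and was called higher only without array 1 (1.63, adjusted p = 0.0263), as was Epor, the erythropoietin receptor gene (0.74, 0.0381).

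Jun and Egr1, immediate early genes that respond to growth signals and to handling, had changes of -0.97 and -0.96 and Atf4 and Hspa5, of the unfolded protein response, -0.89 and -0.83. These passed with equal weights only. Other members went the other way. Of the 17 immediate early genes 6 had a change above 0, among them Fos (1.22) and Nr4a1 (1.00). Of the 13 heat shock and unfolded protein response genes 5 did, among them Asns (1.20), as did 10700 of all 19937 genes. Fos, Nr4a1 and Asns did not pass. Vegfa, the vascular growth factor gene, had 0.77 ± 0.13 SE, with MLL-AF9 arrays at 7.48, 7.42 and 7.17 and no-virus arrays between 6.54 and 6.71, also with equal weights only. Of 15 interferon response genes Bst2 passed, higher, with equal weights (0.96, adjusted p = 0.015) and the median was -0.18. The donors of both groups had received poly I:C, an interferon inducer, the no-virus ones shortly before the sort. Of 9 D-type cyclin and CDK inhibitor genes and 13 glycolysis and hypoxia genes 0 passed with both weightings, with medians of 0.42 and 0.20. For the lists on MYC and ribosome biogenesis, heat shock, the BCL2 family, cholesterol synthesis, cytokine response, adhesion, dendritic cells, stroma and mature lymphocytes, 0 members passed with both weightings, and their medians lay between -0.43 and 0.40.

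Against the knockout L-GMPs, which share genotype and virus but were leukaemic, were gated as GMPs and stand for 1 leukaemia, the MLL-AF9 knockout CMPs differed in 2647 genes with equal weights (13.3%), 1305 higher (6.55%) and 1342 lower (6.73%), and in 1624 with both weightings (8.15%). Hoxa9, at 5.09 to 7.46 in MLL-AF9 CMPs and 7.40 to 7.91 in L-GMPs, and Eya1, at 4.59 to 8.99 and 9.32 to 9.69, had differences of -1.16 and -1.95 that did not pass (adjusted p = 0.147 and 0.174). Of the 19 fusion targets 4 differed with both weightings. They were Jmjd1c (-1.49 ± 0.17 SE), Hoxa5 (-1.86 ± 0.52 SE) and Flt3, a receptor kinase gene (-2.64 ± 0.80 SE), all lower in the MLL-AF9 CMPs, and Bcl2 (0.98 ± 0.23 SE), which was higher. Mecom had a difference of -1.93, at 3.65 to 8.60 in MLL-AF9 CMPs and 8.14 to 9.60 in L-GMPs, and did not pass. All of these differences include array 1, the lowest MLL-AF9 array for Hoxa9, Eya1, Hoxa5, Flt3 and Mecom, and are not given without it. Without array 1, 2467 genes differed with equal weights.

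The granule protease genes Ctsg and Prtn3 were below the knockout L-GMPs, with differences of -6.24 ± 0.46 SE and -5.68 ± 0.46 SE (adjusted p = 2.8e-07 and 7.87e-07), and the platelet gene Pf4 was above them by 5.15 ± 0.75 SE (0.000211). Of the 12 largest rises and 12 largest falls, the widest gaps were those of Pcdh7 (-4.97 ± 0.21 SE, adjusted p = 5.58e-10), Mpo (-4.77 ± 0.66 SE, adjusted p = 0.000127) and, in the other direction, Plxdc2 (3.95 ± 0.52 SE, 7.75e-05) and Il18r1 (3.39 ± 0.62 SE, 0.00151). Mycn was higher in the MLL-AF9 CMPs by 2.79 ± 0.23 SE and Ccnd2 by 1.79 ± 0.17 SE, with adjusted p of 9.98e-07 and 4.15e-06. Cenpe was lower by -1.16 ± 0.16 SE (adjusted p = 0.000114), with 8.15 on the primary L-GMP array and 7.20 and 7.10 on those from second transplants. All of these also passed with group weights.

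The change with MLL-AF9 in the knockout CMPs was then set against that in control cells, where control L-GMPs were compared with control GMPs. No array enters both changes. The 2 changes differed in 1302 genes with equal weights (6.53%), 792 of them positive (3.97%) and 510 negative (2.56%). That split turned to 588 positive and 629 negative when arrays were centred on their medians. With both weightings 571 genes differed (2.86%). Among the 972 genes called in the knockout CMPs with equal weights, 318 differed in this way. The knockout CMP change is itself part of the difference, so a share above 6.53% among genes picked by that change is built in and adds no support. Of the 19 fusion targets 1 differed, Jmjd1c. It had a change of -0.54 in the knockout CMPs, and in control cells it was at 9.06 to 9.57 in L-GMPs, against 8.37 to 8.43 in GMPs. The difference of the changes was -1.47 ± 0.21 SE (adjusted p = 0.00144, or 0.0138 with group weights). Hoxa9, at 7.66 to 8.0 in control L-GMPs, against 5.05 to 5.85 in GMPs, gave a difference of -1.86 ± 0.63 SE (adjusted p = 0.0903), and Eya1, at 9.00 to 9.55 against 5.27 to 5.48, gave -3.50 ± 1.13 SE (adjusted p = 0.076, or 0.0351 with group weights), neither passing both. These standard errors are wide, and a p above the threshold does not show that the changes were alike. Array 1 entered both differences. Without it the knockout CMP changes of Hoxa9 and Eya1 were 1.31 and 1.93, against 0.61 and 0.48 with it.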

How the data were processed

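Sorted bone marrow cells of 23 samples were measured on Affymetrix arrays, 1 sample per array. The deposited log2 values of 34760 probe sets were made by the authors with RMA, per the submitters' processing notes. The sources used here give no version of it. The values were taken as deposited, and the number of arrays limits their precision.

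The platform annotation gave a single symbol to 21640 probe sets, several to 1321 and none to 11799. Of the single ones 21553 matched RefSeq (GRCm38.p6), which changed 0. For 954 genes with several probe sets the brightest was kept, giving 19937 genes, and 496 of these were at the floor on all 7 arrays. No 2 arrays held more than 0.00309% identical values. Means of 9 labelled groups were fitted to all 23 arrays with limma 3.58.1 in R 4.3.3 (empirical Bayes with trend, Benjamini-Hochberg threshold 0.05, 14 residual degrees of freedom). A second condition was 1 estimated weight per group, 0.358 for the MLL-AF9 CMPs and 2.18 for the no-virus CMPs. The labels do not say whether the no-virus samples were single mice, so p-values measure the spread between samples, which may be technical. The code was tested on simulated data, where, with noise as observed in each group, a larger share of the calls was false with equal weights alone than with both weightings.

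The samples, 29 gene lists, named genes and tests were chosen with earlier results of these data known. Named are Cebpa, Hoxa9, Eya1, all MLL-fusion targets, the 12 largest rises and falls under both weightings without overlap of arrays (predicted, clone-named, small RNA, receptor-segment, olfactory and Y-linked genes and Xist left out), and up to 4 called members per list, or 2 by value. Other members were named to complete a list, and array 1 genes after their values and those of the KSL arrays were seen. Alternatives were group and array weights, the 7 arrays alone, no trend, median centring, a filter on dim genes, mean probe sets, high Xist as a covariate, recipient or leukaemia as a random block, the replicate number as a block, and leaving out each array. Leaving out both arrays of recipient 9, and array 1 with group weights, were added after seeing the data. Same-numbered arrays did not deviate together (r of 0.126, -0.102 and -0.159 over genes), and they come from different mice.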

Additional observations from a re-analysis of the deposited data

Results flagged for a closer look

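The change with MLL-AF9 differed between knockout CMPs and control L-GMPs in 1302 genes with equal weights, by the contrast that tests the difference itself. The control change was that of L-GMPs against GMPs, a different cell stage. With both weightings 571 genes differed, and with high Xist as a covariate 96. Jmjd1c was the 1 fusion target among the 1302, with a difference of -1.47.

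Among the no-virus knockout CMPs, 3 of the 89 named genes had an array far from the other 3 by Dixon's criterion, which chance meets in about 1 in 20 groups, so that 3 is no more than chance gives. Lyz2, the lysozyme gene, was at 8.98 on array 4, against 8.54 to 8.57 on the others. Cenpe was at 7.47 on array 1, against 7.97 to 8.02, and Vegfa at 6.71 on array 1, against 6.54 to 6.55. All 3 MLL-AF9 arrays lay below array 1 for Cenpe and above it for Vegfa.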

How the results depend on the processing

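Calls between MLL-AF9 and no-virus knockout CMPs numbered 972 with equal weights, 118 with 1 weight per group, 335 with 1 weight per array, 443 on the 7 arrays alone and 192 with high Xist as a covariate. Leaving out each array in turn gave 490 to 2035, with 636 without MLL-AF9 array 1, 2035 without array 3, and 505, 503, 490 and 614 without no-virus arrays 1 to 4. With array 1 out and group weights together 1 gene passed. Against the knockout L-GMPs there were 2647 calls, 1648 with group weights, 194 on the arrays compared alone, where fewer samples set the spread, and 1924 to 2983 leaving out each array. The difference from control cells had 1302 calls, 589 with group and 864 with array weights, 96 with Xist, 2000 without both arrays of recipient 9, 45 without array 1 and with group weights, and 697 to 2630 leaving out each array (2513 without primary control L-GMP array 1, 2630 without MLL-AF9 array 2, 709 and 697 without GMP arrays 2 and 3, 794 and 861 without no-virus arrays 1 and 3). Median centring gave 588 higher and 629 lower there, against 792 and 510. The causes were not tested.

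With the replicate number as a block, the 3 comparisons had 0, 0 and 227 calls, with 2143 and 2415 genes at an unadjusted p below 0.05 in the first 2. The numbers do not pair these samples. Of 28 genes said to rise or fall, 28 lost the call under that block and 28 without array 1 and with group weights, 14 on the 7 arrays alone and 11 with Xist (Myl10, Il18r1, Plxdc2, Zmat3, Cyba, Mocos, Ncam2, Mexis, Chic1, Tceal8 and Rel). Mocos lost it without MLL-AF9 array 1 and Il18r1 without array 2. None reversed under any of these settings, and 24 of the 28 could be tested with the dimmest genes left out.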
